A study of Mus musculus with 23 samples.

Results

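Antioxidant, glutathione and metallothionein genes were followed in mouse gastrocnemius, a mostly fast-twitch calf muscle. The set holds 33 genes taken by symbol: superoxide dismutases, catalase, glutathione peroxidases, peroxiredoxins, the thioredoxin and glutathione systems, glutathione transferases, metallothioneins, and the regulators Nfe2l2 and Keap1. All 33 had a probe, and 32 were among the 23715 features tested. The exception was Gclc, whose only spot was flagged on 1 array of adult HIIT. The 32 tested members were above background on all 23 arrays, so none entered through a single group.

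Muscle makes superoxide and hydrogen peroxide in mitochondria and at membrane oxidases, more so during contraction. Superoxide dismutases turn superoxide into hydrogen peroxide, which catalase, glutathione peroxidases and peroxiredoxins then remove. The peroxidases and peroxiredoxins, but not catalase, draw on glutathione and thioredoxin that NADPH keeps reduced. The transcription factor NRF2, encoded by Nfe2l2, is held down by KEAP1 until oxidants or electrophiles release it, and then drives genes such as Gclm, Txnrd1, Srxn1, Nqo1 and Hmox1. Metallothioneins are small cysteine-rich proteins that bind zinc and copper, and their genes respond to metals through MTF1 and to glucocorticoids.

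The series compared a pair of treadmill regimens in male C57BL/6J mice. Adult animals entered at 5 months and old animals at 24 months, and the labels give 6 and 25 months for the sampled tissue. Training was daily for 4 weeks. In high-intensity intermittent training (HIIT) mice ran 3 times for 2 min at a belt speed of 27 m/min and recovered for 1 min at 5 m/min. In moderate-intensity continuous training (MICT) they ran once for 45 min at 13 m/min, and sedentary controls stood on a switched-off treadmill. Mice rested for 12 h before whole muscle was excised, and each array received Cy3-labelled RNA made from 200 ng. The groups were old MICT (4 arrays), old HIIT (4), old control (4), adult HIIT (4), adult MICT (3, numbered 1, 3 and 4) and adult control (4). The labels name no genetic change and do not say whether RNA of several mice was pooled. The p-values below measure the spread between these arrays.

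Promoter sequences are shown for the NRF2-driven members that hold an antioxidant response motif and for both metallothioneins. RefSeq promoter windows of GRCm38.p6 were available for 27 of the 33 members, and the 250 bases before the start were searched on both strands. These 27 members had 35 windows. A member counts with a match in any of its windows, while the shares of all windows are per window. The counts and shares are therefore not like for like. The antioxidant response motif was taken as TGACNNNGC or TGAGTCAGC and occurred in 10.5% of all 32851 windows. It occurred in 9 members, of which 4 are NRF2-driven (Gclm, Txnrd1, Srxn1 and Prdx1) and the others are Sod1, Gstp1, Mgst1, Mt2 and Nfe2l2. In Gclm it began 134 bases before the start, in Txnrd1 92, in Srxn1 45 and in Prdx1 133. Txnrd1 had 3 windows, of which 1 held a match, and the windows of Keap1 and Nqo1 held none. The lines give 60 bases of each, with the match in capitals.
Gclm, chr3:122245397-122245456, + strand: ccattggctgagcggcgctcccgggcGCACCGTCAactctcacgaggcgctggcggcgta
Txnrd1, chr10:82859088-82859147, + strand: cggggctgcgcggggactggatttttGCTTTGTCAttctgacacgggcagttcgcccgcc
Srxn1, chr2:152105453-152105512, + strand: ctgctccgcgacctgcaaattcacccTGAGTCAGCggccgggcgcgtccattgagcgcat
Prdx1, chr4:116685440-116685499, + strand: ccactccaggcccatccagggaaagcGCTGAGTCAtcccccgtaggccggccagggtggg

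The metal response motif was taken as TGCACNC or TGCGCNC and occurred in 21.4% of the windows. It occurred in any window of 8 of the 27 members with a window: Mt1, Mt2, Txnrd2, Glrx, Gclm, Srxn1, Gstm1 and Prdx4. Mt1 held 1 match and Mt2 held 3 in the 250 bases before the start, in capitals below. Bases from the annotated start onward were not searched, so these counts are for the window and not for the whole promoter. A match is a description of the letters and not a binding site.
Mt1, chr8:94178839-94179088, + strand: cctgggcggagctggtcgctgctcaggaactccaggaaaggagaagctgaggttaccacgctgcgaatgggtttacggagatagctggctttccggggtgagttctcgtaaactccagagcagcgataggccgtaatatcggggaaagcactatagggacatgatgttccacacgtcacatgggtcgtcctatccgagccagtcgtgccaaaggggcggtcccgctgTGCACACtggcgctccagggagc
Mt2, chr8:94172368-94172617, + strand: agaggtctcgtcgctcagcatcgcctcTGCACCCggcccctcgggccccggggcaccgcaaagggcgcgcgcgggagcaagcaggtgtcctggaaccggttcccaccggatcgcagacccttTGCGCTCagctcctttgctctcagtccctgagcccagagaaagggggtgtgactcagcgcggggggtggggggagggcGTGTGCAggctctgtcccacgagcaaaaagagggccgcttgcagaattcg

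Levels are log2 signals with each array's 75th percentile at 0, and a difference of 1 is a doubling. They were set against each other only within a probe. The share of gene spots well above background ran from 47.2% to 58.9% over the arrays, and none was saturated. The 3 slides each held a pair of groups: adult HIIT with adult control, adult MICT with old control, and old HIIT with old MICT. Of the training comparisons, adult HIIT against its control and old HIIT against old MICT therefore lie within a slide. In the others slide and group cannot be told apart, other than under an additive model that takes training effects as equal at both ages. The 8 skeletal muscle fibre markers were all measured, with a list score (median deviation from the adult control mean) of -0.21 to 0.37 in old MICT, -0.56 to 0.28 in old HIIT, -0.62 to 0.30 in old controls and -0.26 to 0.29 in adult controls.

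Markers of other cells moved between arrays of a group, most in old controls. The B and plasma cell list (8 of 8 measured) scored 0.09 to 0.27 in old MICT, 0.84 to 4.15 in old HIIT, 1.21 to 6.08 in old controls and -0.24 to 0.02 in adult controls, with old controls 1 and 2 highest at 6.08 and 4.70. The T and NK cell list (11 of 11) scored -0.14 to 0.80 in old MICT, 0.43 to 2.73 in old HIIT, 1.19 to 4.03 in old controls and -0.16 to 0.35 in adult controls. The macrophage list (9 of 10) scored -0.57 to 0.26 in old MICT, -0.19 to 0.45 in old HIIT, -0.16 to 1.32 in old controls and -0.48 to 0.69 in adult controls, and 4 of its 9 genes were called lower in old MICT over old control. Adipocyte markers (10 of 10) reached 1.99 in old MICT, 2.48 in old HIIT, 3.80 in old controls, 2.96 in adult HIIT, 2.07 in adult MICT and 0.17 in adult controls. In whole muscle, fewer cells of a type and less RNA per cell cannot be told apart.

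**Figure D1:**
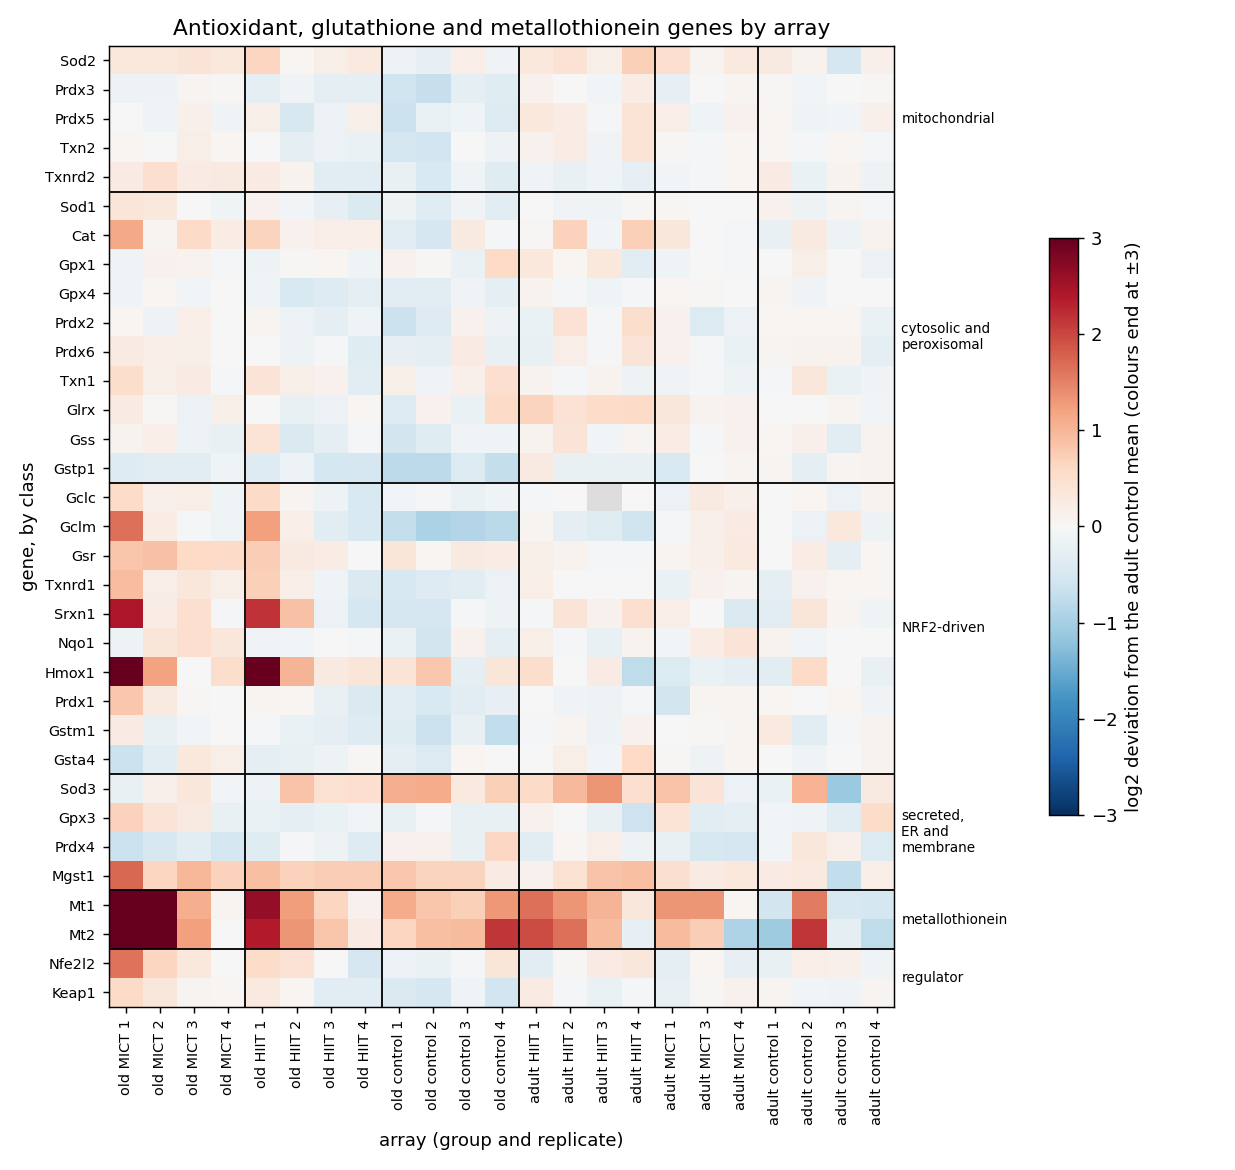
Each cell is the log2 deviation of a gene (rows, by class) in an array (columns) from the adult control mean, red above and blue below, with the left-out Gclc value in grey. The strongest reds are Mt1 and Mt2 in old MICT 1 and 2 and old HIIT 1, and Hmox1 and Srxn1 in old MICT 1 and old HIIT 1, while all 4 old controls are blue in Gclm, Gstp1 and Prdx3.

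In old mice, MICT was accompanied by higher transcript levels of 13 of the 32 members and a lower level of 1, Prdx4. The 13 were 3 of 5 mitochondrial genes, 3 of 10 cytosolic and peroxisomal genes, 6 of 9 NRF2-driven genes and Keap1. Each member was placed in 1 class, with earlier results of these data known, and the counts by class depend on that placement. The share called higher was 40.6% of the members against a background of 21.2% of all features, and 3.12% against 9.03% called lower. Without overlap between the groups, 12 members lay wholly higher (16.5% of all features) and 1 wholly lower (5.74%). In either direction 30.2% of all features were called (limma, adjusted p under 0.05 over 23715 features). The members' median difference was 0.43, against 0.19 for all features, and 29 of 32 differences were positive. With quantile scaling, which moved the median of all features to 0.06, 3 members stayed called higher (Gclm, Keap1 and Txnrd2) and 1 lower (Prdx4).

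Among mitochondrial genes all 5 differences were positive, from 0.34 to 0.61, and 3 rose. Txnrd2, the mitochondrial thioredoxin reductase, was at 3.92, 4.19, 3.91 and 3.95 in old MICT arrays 1 to 4, against 3.45, 3.22, 3.54 and 3.31 in old controls 1 to 4. Every old MICT array lay above every old control, and the difference was 0.61 ± 0.13 (SE, n = 4 each, adjusted p = 0.00488). Prdx3, the mitochondrial peroxiredoxin, was at 4.93, 4.93, 5.15 and 5.10 in old MICT, against 4.47, 4.39, 4.80 and 4.70 in old controls. It rose by 0.44 ± 0.10 (adjusted p = 0.00698), again with no overlap.

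Txn2, the mitochondrial thioredoxin that supplies electrons to Prdx3, was at 6.74, 6.66, 6.85 and 6.74 in old MICT, against 6.14, 6.09, 6.66 and 6.53 in old controls, where arrays 1 and 2 were lowest. Its groups touched at 6.66 to 2 decimals without crossing, and it rose by 0.40 ± 0.12 (adjusted p = 0.0203). Without old control 1 the difference was 0.32 and without old control 2 it was 0.31, neither called.

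The other mitochondrial members did not pass. Sod2, the matrix superoxide dismutase, was at 7.15, 7.15, 7.23 and 7.16 in old MICT, against 6.66, 6.59, 7.05 and 6.74 in old controls, with no overlap and a difference of 0.41 ± 0.16 (adjusted p = 0.0543). Prdx5, a peroxiredoxin of mitochondria and peroxisomes, differed by 0.34 ± 0.14 (adjusted p = 0.0783), also without overlap. With median scaling all 5 mitochondrial genes were called, Sod2 and Prdx5 among them. With quantile scaling 1 was called, the mitochondrial median was 0.14, against 0.41 with percentile scaling, and all 5 differences were still positive.

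**Figure D2:**
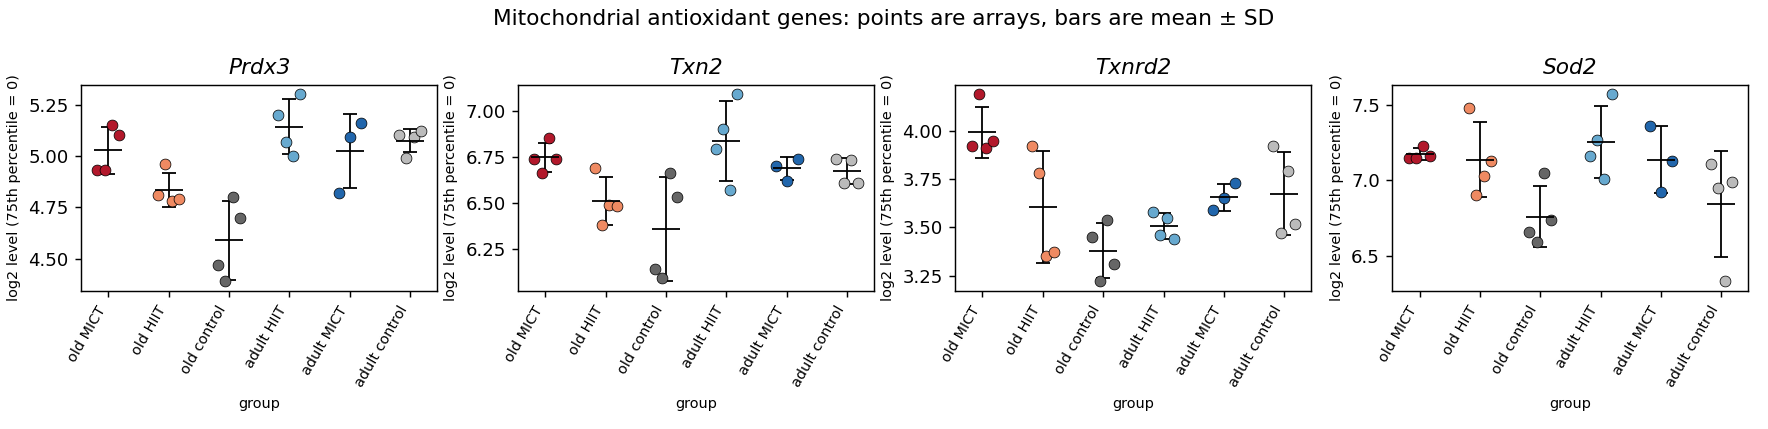
Log2 level (75th percentile = 0) of 4 mitochondrial genes in each array, by group, with mean ± SD as bars. Old MICT arrays lie above old controls in all 4 panels, and old controls have the lowest mean of the 6 groups in each.

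Of the 10 cytosolic and peroxisomal genes 3 rose, and the class median was 0.28. Sod1, the cytosolic superoxide dismutase, was at 7.23, 7.19, 6.87 and 6.73 in old MICT, against 6.71, 6.50, 6.77 and 6.52 in old controls, and rose by 0.37 ± 0.12 (adjusted p = 0.0261). Arrays 1 and 2 of old MICT were highest, and the groups overlapped. Cat, peroxisomal catalase, was at 3.52, 2.45, 2.95 and 2.61 in old MICT, against 2.06, 1.88, 2.64 and 2.31 in old controls. It rose by 0.66 ± 0.23 (adjusted p = 0.0350) with overlap, and without old MICT 1, its highest array, the difference was 0.45 and not called. Gstp1, a glutathione transferase, was at 4.31, 4.37, 4.36 and 4.57 in old MICT, against 3.91, 3.90, 4.27 and 3.97 in old controls, a rise of 0.39 ± 0.14 without overlap (adjusted p = 0.0401). Its call was lost in 17 of 25 alternative settings, the most of any member called in this comparison. These settings, here and below, include fits with fewer arrays and the additive model with slide, whose term is another quantity.

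The peroxiredoxins and glutathione peroxidases of this class did not pass: Gpx4, which reduces lipid hydroperoxides, differed by 0.20 ± 0.08, Prdx6 by 0.30 ± 0.14, Prdx2 by 0.28 ± 0.17 and Gpx1 by -0.12 ± 0.15. Txn1 (0.05 ± 0.15), the cytosolic thioredoxin, Glrx (0.04 ± 0.16), a glutaredoxin, and Gss (0.27 ± 0.17), which joins the last amino acid of glutathione, did not pass either. With quantile scaling this class had a median of 0.01, with 5 of 10 differences positive.

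With percentile scaling, NRF2-driven genes had the highest share of members called, 6 of 9, with a class median of 0.63 and all 9 differences positive. This ranking changed with the scaling: with median scaling 6 of 9 were called again, but 5 of 5 mitochondrial genes were. With quantile scaling all 9 were still positive, the median was 0.38 and only Gclm was called. Gclm, the modifier subunit of the enzyme that limits glutathione synthesis, was at 0.70, -0.73, -1.01 and -1.09 in old MICT, against -1.67, -1.92, -1.84 and -1.78 in old controls. All old MICT arrays were above all old controls, with array 1 far above the rest, and the difference was 1.27 ± 0.34 (2.41-fold, adjusted p = 0.0113). Txnrd1, the cytosolic thioredoxin reductase, was at 5.14, 4.43, 4.57 and 4.39 in old MICT, against 3.73, 3.84, 3.89 and 4.05 in old controls, and rose by 0.75 ± 0.19 (adjusted p = 0.00951). Prdx1, a cytosolic peroxiredoxin, was at 6.44, 5.91, 5.67 and 5.64 in old MICT, against 5.29, 5.18, 5.30 and 5.38 in old controls, and rose by 0.63 ± 0.16 (adjusted p = 0.00917). Neither overlapped, and in both array 1 of old MICT was the highest of all 23.

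Gsr, glutathione reductase, was at 4.00, 4.06, 3.77 and 3.76 in old MICT, against 3.54, 3.23, 3.44 and 3.41 in old controls, and rose by 0.49 ± 0.14 (adjusted p = 0.0133). Gstm1, a mu-class glutathione transferase, was at 4.93, 4.47, 4.60 and 4.68 in old MICT, against 4.33, 4.05, 4.46 and 3.96 in old controls, and rose by 0.47 ± 0.13 (adjusted p = 0.0153). Both groups were separate for both genes. Nqo1, a quinone reductase, was at 1.48, 1.98, 2.13 and 1.97 in old MICT, against 1.42, 1.06, 1.75 and 1.34 in old controls, with old MICT 1 the lowest of its group. It rose by 0.50 ± 0.15 (adjusted p = 0.0177) with overlap. Whether the probes of Gstp1 and Gstm1 also bind near-identical relatives was not tested.

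Hmox1 and Srxn1 had the widest spread of the class in old MICT, with SDs of 1.76 and 1.12. Hmox1, heme oxygenase 1, was at 5.18, 2.42, 1.22 and 1.76 in old MICT, against 1.61, 2.04, 0.95 and 1.58 in old controls. Srxn1, which repairs overoxidised peroxiredoxins, was at 5.39, 3.18, 3.47 and 2.92 in old MICT, against 2.47, 2.47, 2.93 and 2.81 in old controls. A single old MICT array stood high in both, the groups overlapped, and the differences of 1.10 ± 0.63 (adjusted p = 0.178) and 1.07 ± 0.47 (adjusted p = 0.0874) did not pass. Gsta4, an alpha-class transferase for lipid aldehydes, differed by 0.04 ± 0.18. Gclc, the catalytic partner of Gclm, could be fitted only with flagged spots kept, and then differed by 0.32 ± 0.18 (adjusted p = 0.168), with 2.25, 1.85, 1.88 and 1.57 in old MICT, against 1.60, 1.64, 1.48 and 1.56 in old controls.

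Of the regulators, Keap1 rose. It was at 4.42, 4.20, 3.94 and 3.90 in old MICT, against 3.42, 3.35, 3.73 and 3.27 in old controls, a difference of 0.67 ± 0.15 without overlap (adjusted p = 0.00632). Nfe2l2 was at 4.88, 3.91, 3.59 and 3.25 in old MICT, against 3.08, 3.07, 3.20 and 3.63 in old controls. It differed by 0.66 ± 0.27 and did not pass (adjusted p = 0.0660), and old MICT 4 lay below old control 4.

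**Figure D3:**
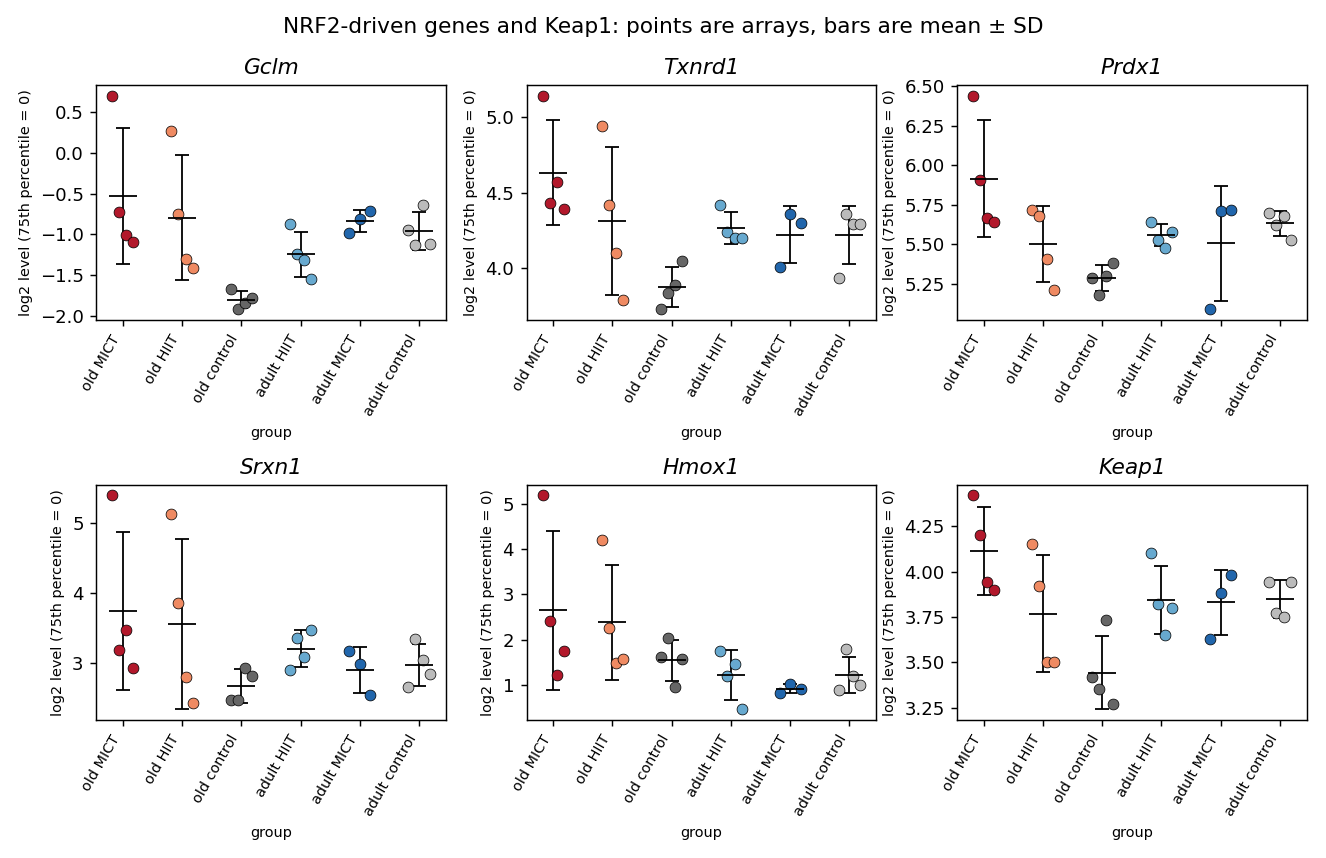
Log2 level (75th percentile = 0) of 5 NRF2-driven genes and Keap1 in each array, by group, with mean ± SD as bars. Old MICT 1 and old HIIT 1 are the highest arrays of their groups in all 6 panels, and the other old MICT arrays still lie above old controls for Gclm, Txnrd1, Prdx1 and Keap1.

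Of the 4 secreted, endoplasmic reticulum (ER) and membrane members 1 fell and none rose, and the class median was -0.12. Prdx4, the peroxiredoxin of the ER, was at 0.37, 0.53, 0.68 and 0.48 in old MICT, against 1.14, 1.13, 0.79 and 1.63 in old controls. It fell by 0.65 ± 0.17 on the log2 scale without overlap (0.635-fold, adjusted p = 0.0109). Sod3, the extracellular superoxide dismutase, was at 2.22, 2.58, 2.78 and 2.35 in old MICT, against 3.53, 3.56, 2.74 and 3.15 in old controls, a difference of -0.76 ± 0.34 that did not pass (adjusted p = 0.0893). The fibroblast list, which holds none of the members, scored -1.40 to -0.44 in old MICT and -0.35 to 0.61 in old controls. Its genes did not all move together: of 8, 5 were called lower and 1 higher in old MICT over old control. The part of the fibroblast list in the lower Prdx4 level, and that of the B and plasma cell markers above, was not tested. Gpx3, the plasma glutathione peroxidase, differed by 0.45 ± 0.20 (adjusted p = 0.0916) and Mgst1, a microsomal transferase, by 0.42 ± 0.23 (adjusted p = 0.172).

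Mt1 and Mt2 had the largest SDs of all members in old MICT, 1.95 and 2.10. Mt1 was at 8.19, 9.25, 6.02 and 5.01 in old MICT, against 6.04, 5.76, 5.64 and 6.22 in old controls, and Mt2 was at 7.95, 9.38, 5.89 and 4.67 in old MICT, against 5.29, 5.56, 5.59 and 6.79 in old controls. Arrays 1 and 2 of old MICT lay above every old control and arrays 3 and 4 did not. Neither passed, with differences of 1.21 ± 0.70 (Mt1, adjusted p = 0.188) and 1.17 ± 0.83 (Mt2, adjusted p = 0.279). Without old MICT 1 and 2 the differences turned to -0.40 and -0.53. The Mt1 and Mt2 probes may bind each other's transcript, which was not tested. A second Mt1 probe differed by 1.99 in old MICT over old controls and by -0.18 in old over adult controls, where the main probe gave 0.99.

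**Figure D4:**
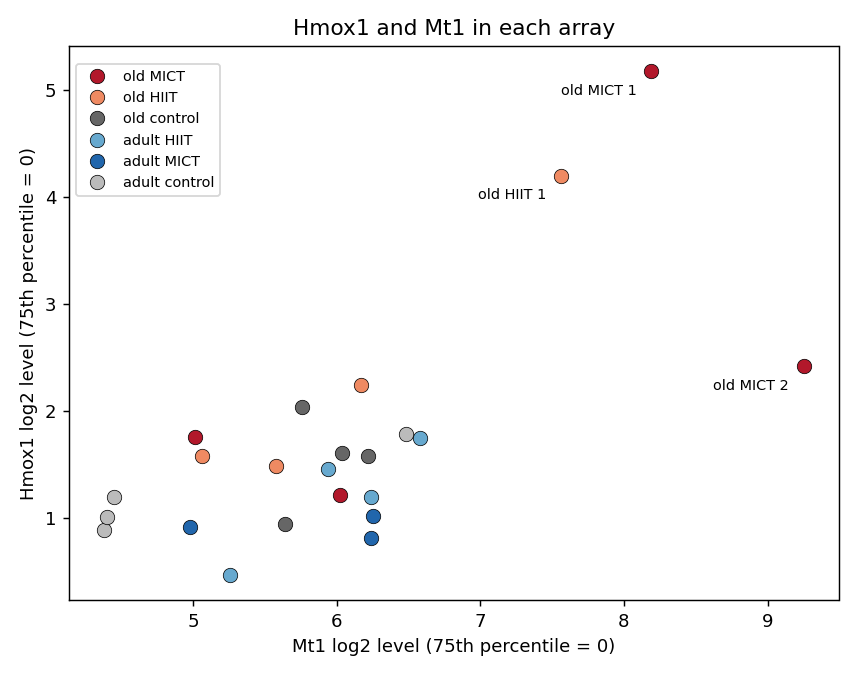
Hmox1 level against Mt1 level in each of the 23 arrays, both as log2 with the 75th percentile at 0, coloured by group. Old MICT 1 and old HIIT 1 are high in both, and old MICT 2 is high in Mt1 (9.25) with Hmox1 at 2.42.

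The same arrays stood high in genes outside the set. A list of 14 glucocorticoid-responsive genes scored 3.04, 2.86, 0.56 and 0.40 in old MICT arrays 1 to 4, 2.15, 0.94, -0.09 and -0.39 in old HIIT arrays 1 to 4, and -0.37 to -0.06 in old controls. In old MICT over old control 12 of the 14 were called higher, led by Pdk4, which limits glucose oxidation (3.76 ± 0.76), Klf15, a transcription factor (1.78 ± 0.37), and Per1, a clock gene (1.74 ± 0.36). The NRF2-driven list scored 0.83, 0.23, 0.31 and 0.17 in old MICT, 0.72, 0.20, -0.14 and -0.39 in old HIIT, and -0.45 to -0.17 in old controls. The part of the glucocorticoid-responsive pattern in the members' values was not tested. Old MICT 1 was the highest of its group for 15 of the 32 members and the lowest for 9, and old HIIT 1 the highest for 23 of 32.

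The old MICT calls changed with the fit and with particular arrays. With only old MICT and old control fitted, none of the 32 members and none of the 23715 features were called (smallest adjusted p of a member 0.0518). None of the members was called without old controls 1 and 2 (smallest adjusted p 0.0662), nor without old MICT 1 and 2 (0.0619). Nor was any called for MICT in the additive model of age, training and slide (0.729). That model takes the same training effects at both ages, and its MICT term adds adult HIIT over adult control to old MICT over old HIIT. Old controls do not enter this term, so it is not a slide-corrected difference between old MICT and old control. The term was 0.22 ± 0.18 for Txnrd2, 0.26 ± 0.15 for Prdx3, 0.47 ± 0.19 for Gsr and -0.03 ± 0.47 for Gclm.

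**Figure D5:**
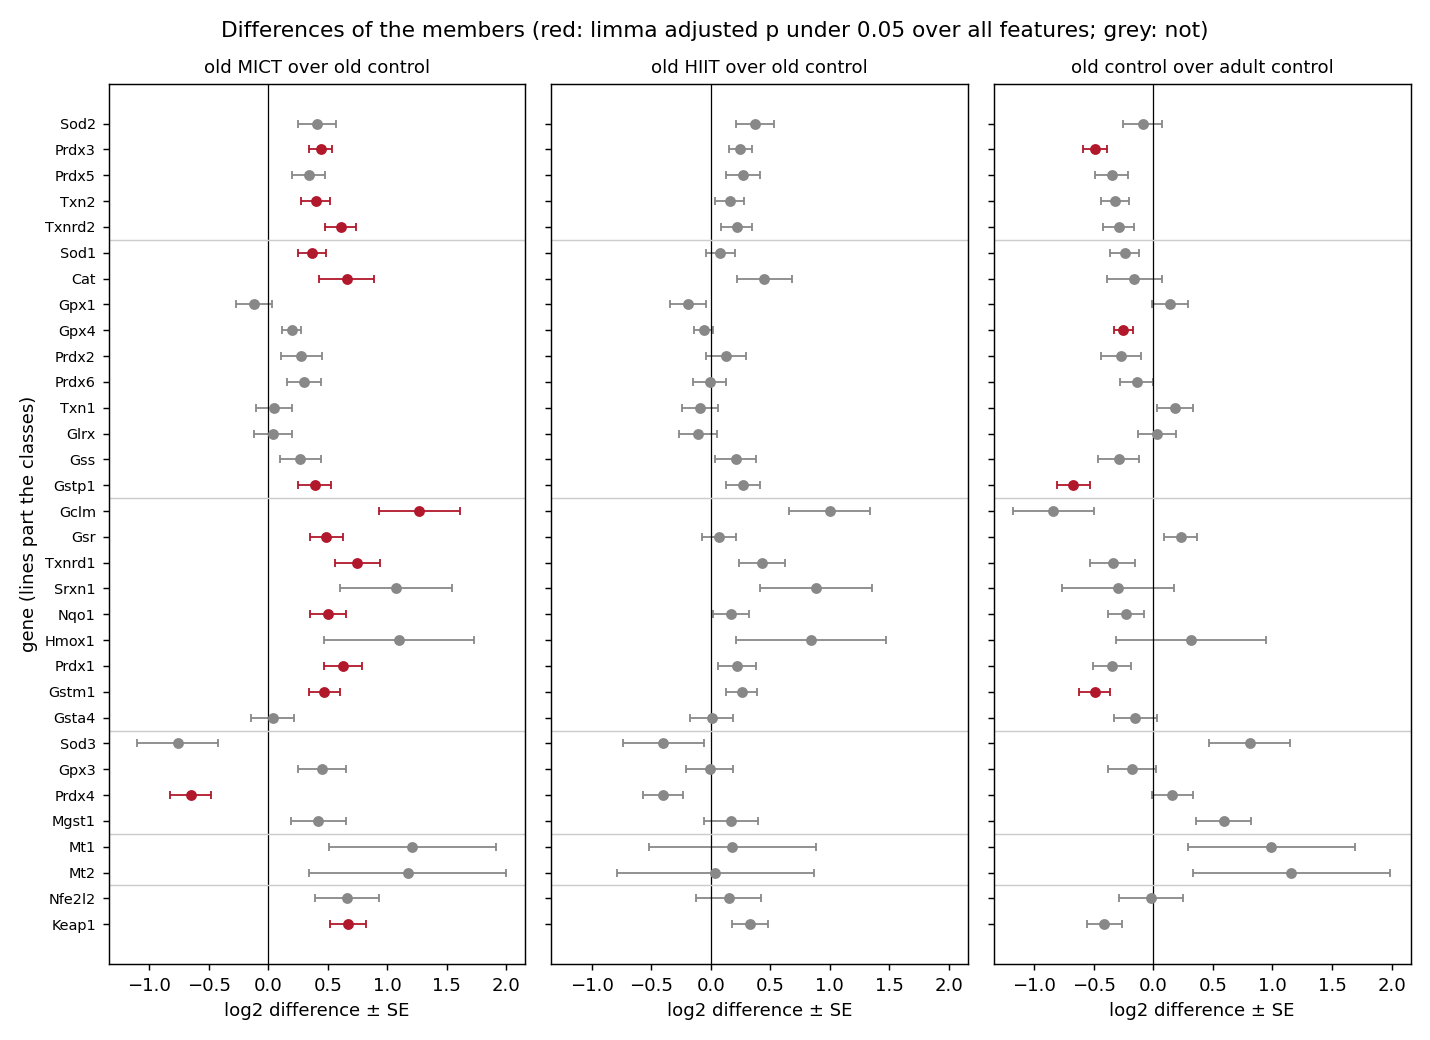
Log2 difference ± SE of the 32 tested members (rows, by class) in 3 comparisons, red where limma's adjusted p is under 0.05. In old MICT over old control 13 are red to the right of 0 and 1 to the left, in old HIIT over old control none are red, and in old control over adult control 4 are red to the left.

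Between old and adult sedentary mice 4 of the 32 members fell and none rose. This was 12.5% of the members, against 9.07% of all features called lower (4.58% higher and 13.6% in either direction), and the median difference was -0.20 in the members and -0.15 in all features, so that the members lay near the background. Gstp1 fell most among the called genes, at 3.91, 3.90, 4.27 and 3.97 in old controls, against 4.77, 4.42, 4.77 and 4.79 in adult controls, a difference of -0.67 ± 0.14 (adjusted p = 0.00894). Prdx3 was at 4.47, 4.39, 4.80 and 4.70 in old controls, against 5.10, 4.99, 5.09 and 5.12 in adult controls, a difference of -0.49 ± 0.10 (adjusted p = 0.0100). Neither gene overlapped between the ages.

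Gstm1 was at 4.33, 4.05, 4.46 and 3.96 in old controls, against 4.97, 4.36, 4.62 and 4.80 in adult controls, a difference of -0.49 ± 0.13 with overlap (adjusted p = 0.0256). Gpx4 was at 6.75, 6.73, 6.96 and 6.79 in old controls, against 7.14, 6.96, 7.06 and 7.07 in adult controls. Its groups overlapped at old control 3, its difference was -0.25 ± 0.08 (adjusted p = 0.0496), and 16 of 25 alternative settings lost the call and 1 turned the sign. Gclm (-0.84 ± 0.34), Prdx1 (-0.35 ± 0.16) and Keap1 (-0.41 ± 0.15) lay wholly below adult controls without passing. In all, 5 members lay wholly lower in old controls, where 11% of all features did.

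By class, all 5 mitochondrial differences with age were negative (median -0.32), with Prdx3 called. With quantile scaling 4 of 5 were negative (median -0.17). Txn2 was at 6.14, 6.09, 6.66 and 6.53 in old controls, against 6.74, 6.61, 6.73 and 6.61 in adult controls, a difference of -0.32 ± 0.12 that did not pass (adjusted p = 0.0740). Both metallothioneins lay higher without passing. Mt1 was at 6.04, 5.76, 5.64 and 6.22 in old controls, against 4.38, 6.48, 4.45 and 4.40 in adult controls, where array 2 was far above the others. Sod3 (0.81 ± 0.34) and Mgst1 (0.59 ± 0.23) were also higher in old controls without passing.

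The number of age calls changed with single arrays left out, from 2 to 6, and no single array removed them all. Over 25 alternative settings Gstp1 kept its call in 22 and Prdx3 in 21, against 14 for Gstm1 and 8 for Gpx4. The 25 include fits with fewer arrays and the additive model's age term, which is another quantity. Without old controls 1 and 2, the arrays with the highest B and T cell scores, none of the 32 members was called (smallest adjusted p 0.170), and 2 were called without any 1 of old controls 1, 2 and 4 and adult controls 1, 3 and 4. Skeletal muscle fibre markers were called lower in 3 of 8 in old over adult controls and higher in 3 of 8 in old MICT over old controls. Their part in the members' differences was not tested. With quantile scaling Gstp1 and Prdx3 stayed lower, Gsr (0.37 ± 0.11) and Mgst1 (0.77 ± 0.24) were called higher, and Gpx4 and Gstm1 were not called. The age term of the additive model with slide called no member (smallest adjusted p 0.529), and its mitochondrial median was -0.05. That term is old control over adult MICT plus the model's MICT term given above, with training effects taken as equal at both ages. It is therefore not the difference between old and adult controls itself.

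In old HIIT over the same old controls none of the 32 members was called, where 0.434% of all features were. At an unadjusted p under 0.05 there were 3685 of the 23715 features and 6 of the 32 members: Gclm, Sod2, Prdx3, Txnrd1, Prdx4 and Keap1. Gclm was at 0.27, -0.75, -1.30 and -1.41 in old HIIT, against -1.67 to -1.92 in old controls, the only member without overlap (4.34% of all features lay wholly higher), and differed by 1.00 ± 0.34 (adjusted p = 0.179). Sod2 was at 7.48, 6.90, 7.03 and 7.13 in old HIIT and differed by 0.37 ± 0.16, and Prdx3 was at 4.81, 4.96, 4.78 and 4.79 and differed by 0.25 ± 0.10. Prdx4 differed by -0.40 ± 0.17.

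Old HIIT 1 was the highest of its group in several inducible genes, but the lowest in Nqo1, which was at 1.52, 1.54, 1.61 and 1.58 in old HIIT. Hmox1 was at 4.20, 2.25, 1.49 and 1.58 in old HIIT, and Srxn1 at 5.13, 3.85, 2.80 and 2.43. Mt1 was at 7.56, 6.17, 5.58 and 5.06, and Txnrd1 at 4.94, 4.42, 4.10 and 3.79. Array 1 was highest for Hmox1, Srxn1, Mt1 and Txnrd1, and for Mt1 arrays 3 and 4 lay below every old control. The differences over old controls were 0.84 ± 0.63 for Hmox1, 0.88 ± 0.47 for Srxn1 and 0.18 ± 0.70 for Mt1.

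Old HIIT and old MICT shared a slide, and none of the 32 members nor of all features (0%) was called between them, with 9 members and 4043 features at an unadjusted p under 0.05. In old HIIT over old MICT 30 of 32 differences were negative, with a median of -0.24 in the members and -0.09 in all features. Txnrd2 differed by -0.39 ± 0.13, Gsr by -0.42 ± 0.14, Prdx1 by -0.41 ± 0.16 and Gpx4 by -0.26 ± 0.08, none below an adjusted p of 0.210. With quantile scaling 22 of 32 were negative, and the mitochondrial median was 0.02. Prdx6 was the only member without overlap, at 5.78, 5.60, 5.71 and 5.40 in old HIIT, against 6.01, 5.97, 5.93 and 5.78 in old MICT. Its groups touched at 5.78 to 2 decimals, and 4.51% of all features lay wholly lower. These intervals do not show that the regimens act alike.

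In adult mice training gave no called member and no called feature (0%), by limma. In adult HIIT over adult control 4 members and 1216 features were at an unadjusted p under 0.05. Glrx, cytosolic glutaredoxin, was at 1.35, 1.12, 1.24 and 1.25 in adult HIIT, against 0.69, 0.69, 0.76 and 0.60 in adult controls. All adult HIIT arrays were above all controls (1.4% of features lay wholly higher), and it differed by 0.56 ± 0.16 (adjusted p = 0.914). With only these groups fitted, which share a slide, the difference was 0.56 ± 0.09 (adjusted p = 0.452). The other 3 were Sod2 (0.41 ± 0.16), Sod3 (0.84 ± 0.34) and Mgst1 (0.58 ± 0.23), with overlap. Mt1 was at 6.58, 6.24, 5.94 and 5.26 in adult HIIT, against 4.38, 6.48, 4.45 and 4.40 in adult controls. Mt2 was at 6.62, 6.30, 5.59 and 4.41 in adult HIIT, against 3.58, 6.79, 4.35 and 3.89 in adult controls, and adult control 2 overlapped the HIIT arrays for both. The other Mt1 probe differed by -0.08 in adult HIIT over adult control, where the main probe gave 1.08. In adult MICT over adult control it differed by -0.60, where the main probe gave 0.89.

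In adult MICT over adult control 1 member, Prdx4 (-0.40 ± 0.19), and 500 features were at an unadjusted p under 0.05. The members' median difference was 0.01. Glrx was at 1.03, 0.80 and 0.82 in adult MICT, all above adult controls, where 1.68% of features lay wholly higher. Against adult MICT, Glrx was higher in every adult HIIT array (0.36 ± 0.17, adjusted p = 0.642; 3.94% of features lay wholly higher) and Txnrd2 was wholly lower (6.06% of features). Between the adult regimens 1821 features were at an unadjusted p under 0.05.

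Slow-fibre markers (10 of 10 measured) moved with the adult groups, scoring -0.53 to 2.12 in adult HIIT, -2.19 to 1.12 in adult MICT and -0.97 to 1.40 in adult controls. They scored -1.91 to -0.57 in old MICT, -0.98 to 0.55 in old HIIT and -1.38 to 1.34 in old controls. Of the 10, 9 were negative in old MICT over old control (median -0.84) and 9 positive in old HIIT over old MICT (median 1.13), with none called. All 10 adipocyte markers were positive in both adult training comparisons, with medians of 1.14 in adult HIIT and 1.20 in adult MICT over adult controls, and none was called. The part of either list in the members' values was not tested.

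The difference between the ages in the MICT response was tested itself. No member passed, where 0.666% of all features did, and 11 members and 6109 of the 23715 features were at an unadjusted p under 0.05. The response was larger in old than in adult mice by 0.63 ± 0.19 for Txnrd2 (adjusted p = 0.0915), by 0.76 ± 0.23 for Prdx1, by 0.49 ± 0.15 for Prdx3, by 0.70 ± 0.23 for Keap1 and by 1.14 ± 0.49 for Gclm. In all 9 NRF2-driven genes and all 5 mitochondrial genes the difference of responses was positive, with medians of 0.75 and 0.38 against 0.21 for all features. With quantile scaling 9 of 9 and 3 of 5 were positive, with medians of 0.44 and 0.08. For HIIT, no member and no feature passed (0%, by limma). At an unadjusted p under 0.05 there were 2697 features and 4 members, Gclm (1.29 ± 0.47), Txnrd2 (0.39 ± 0.18), Glrx (-0.67 ± 0.22) and Sod3 (-1.24 ± 0.48). Old controls enter these responses as they enter the comparisons above.

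Other genes of the pathway were read from further lists, with the 21.2% of features called higher and 9.03% called lower in old MICT over old control as the background. Of 19 other NRF2 targets and partners 10 rose and 3 fell. Sqstm1, the autophagy adaptor that binds KEAP1, was at 4.68, 4.22, 3.46 and 3.70 in old MICT, against 2.64, 2.70, 3.13 and 2.61 in old controls, and rose by 1.24 ± 0.25 (adjusted p = 0.00392). The small MAF partners Mafk (1.32 ± 0.34) and Mafg (0.95 ± 0.25) also rose, and Ugdh (-0.86 ± 0.22), Blvrb (-0.85 ± 0.23) and G6pdx (-0.88 ± 0.24) fell.

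Of 25 other glutathione genes 6 rose and 3 fell. Chac1, which breaks down glutathione in the cytosol, was at 7.82, 7.74, 6.04 and 4.73 in old MICT, against 4.10, 2.46, 4.24 and 3.17 in old controls, and rose by 3.09 ± 0.71 (adjusted p = 0.00647), with arrays 1 and 2 highest. Glrx3 (0.45 ± 0.12) and Oplah, 5-oxoprolinase (0.74 ± 0.20), rose, and Gpx8 (-0.71 ± 0.22), Mgst2 (-1.56 ± 0.50) and Gstt1 (-0.66 ± 0.24) fell.

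Of 16 thioredoxin, sestrin and methionine sulfoxide genes 4 rose and 1 fell. Sesn1, a sestrin that restrains mTORC1, was at 6.85, 5.82, 2.89 and 3.54 in old MICT, against 2.59, 2.50, 2.43 and 2.69 in old controls, and rose by 2.22 ± 0.64 (adjusted p = 0.0161). Txnip, which binds thioredoxin (0.91 ± 0.30), and Msra, a methionine sulfoxide reductase (0.38 ± 0.11), also rose, and Txndc5 (-0.55 ± 0.18), an ER thioredoxin-like protein, fell.

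Genes of NADPH supply and oxidant production were called lower only. Of 7 NADPH genes 3 fell and none rose: G6pdx, Tkt (-1.11 ± 0.31) and Pgd (-0.53 ± 0.15), all of the pentose phosphate pathway. Of 9 oxidant-producer genes 4 fell and none rose, among them the NADPH oxidase subunits Rac2 (-2.63 ± 0.49), Ncf4 (-2.10 ± 0.46) and Cyba (-1.21 ± 0.28). In old over adult controls the same 3 NADPH genes and the same 3 oxidase genes were called higher, by 0.91 ± 0.24 for G6pdx, 1.10 ± 0.31 for Tkt, 0.65 ± 0.15 for Pgd, 2.16 ± 0.49 for Rac2, 1.55 ± 0.46 for Ncf4 and 0.89 ± 0.28 for Cyba. Both comparisons share the old controls. Rac2 was at -1.68, -2.20, -0.78 and -1.73 in old MICT, against 2.19, 1.36, -0.51 and 1.08 in old controls. Ncf4 and Cyba were highest in old control 4 (2.48 and 4.75), which had the lowest B and T cell scores of its group. It also had the highest macrophage (1.32) and neutrophil and mast cell (7.07) scores. Within the latter list the neutrophil genes, among them Ngp (1.16), Ltf (2.37) and Mpo (2.23), were highest of the group. The mast cell genes Cpa3 (0.21), Mcpt4 (1.56) and Cma1 (-1.66) were lowest of the group in this array. The part of any of these cells in the lower oxidase genes was not tested.

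Of 15 zinc-handling genes 3 rose and 2 fell in old MICT over old control. Slc39a14, a zinc importer, was at 5.59, 4.98, 0.71 and 2.00 in old MICT, against -0.15, -0.07, 0.18 and 0.49 in old controls, and rose by 3.21 ± 0.75 (adjusted p = 0.00700), with arrays 1 and 2 highest as for Mt1 and Mt2. Slc30a2 (1.46 ± 0.41) and Slc39a7 (0.40 ± 0.13) rose, and Slc30a7 (-0.63 ± 0.19) and Slc39a6 (-0.82 ± 0.26) fell.

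With age, where 4.58% of all features were called higher and 9.07% lower, 2 of the 25 other glutathione genes rose, Mgst2 (2.55 ± 0.50) and Gsta3 (1.82 ± 0.57), and 2 fell, Oplah (-0.91 ± 0.20) and Gstm4 (-0.81 ± 0.20). Of the 16 thioredoxin, sestrin and methionine sulfoxide genes 2 fell, Selenow (-0.72 ± 0.17) and Msrb2 (-0.63 ± 0.15), and none rose. Of 19 other NRF2 targets only G6pdx was called, higher. In old HIIT over old control none of the genes in these lists was called.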

How the data were processed

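RNA of gastrocnemius was measured on 23 Agilent 1-colour arrays (6 groups, per the labels). Per the file headers, Feature Extraction 12.0.3.1 made the deposited processed intensity, background subtracted and detrended within each array, and not scaled between arrays. A deposited value table holds a score, which the values show to be a z-score of log10 signal within each array (gap at most 0.05), while no label or header states how it was made. The log2 intensity was computed from the deposited signal, and each array's 75th percentile subtracted. The 3671 control spots, flagged spots and 283 probes flagged throughout on an array were left out. Probes well above background on at least 3 arrays were tested (31950), named by accession through RefSeq names of GRCm38.p6 (28331 of 29786 matched, the array annotation being of mm9), with the brightest probe of a gene used, giving 23715 features (15472 named).

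The means of the 6 groups were fitted by limma (release 3.58.1, on R 4.3.3; input read by data.table, release 1.17.8) with a trended prior variance, and differences taken between them. Tests were 2-sided, adjusted by Benjamini-Hochberg over all features of each of 9 comparisons, and called at an adjusted p under 0.05. The procedure was tested on simulated data. No array pair of a group correlated above 0.9911, and replicates were taken as separate samples. Members and lists were chosen with earlier results of these data known. Members called anywhere, or with the largest difference of their class, are given array by array, and of each other list up to 3 called genes per direction. Genes missing from the lists' counts were not measured above background or had no probe. Replicate numbers were not used to pair arrays in the main fit. Alternatives and left-out arrays are given in the closing section. Adult MICT replicate 2 was not analysed here.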

Additional observations from a re-analysis of the deposited data

Results flagged for a closer look

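Within groups of 4 arrays, 12 member values stood apart from the other 3 by a gap test at the 95% level, among 160 tests over members and groups. Chance flags about 1 in 20 such groups. In old MICT these were Sod2 in array 3 at 7.23, against 7.15 to 7.16, and Txnrd2 in array 2 at 4.19, against 3.91 to 3.95. In old HIIT they were Prdx3 in array 2 at 4.96, against 4.78 to 4.81, and Cat in array 1 at 3.04, against 2.50 to 2.58. In old controls they were Prdx6 in array 3 at 6.00, against 5.46 to 5.53, and Gpx3 in array 2 at 4.46, against 4.27. In adult HIIT Gstp1 in array 1 was at 4.96, against 4.46.

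In adult controls 5 values stood apart. Array 4 was low in Prdx2 at 4.86, against 5.12 to 5.13, and in Prdx6 at 5.48, against 5.84 to 5.87. Array 2 was low in Gstp1 at 4.42, against 4.77 to 4.79, and high in Mt1 at 6.48, against 4.38 to 4.45. Array 3 was low in Mgst1 at 3.42, against 4.37 to 4.45. Old MICT 1 and old HIIT 1 did not pass the gap test for Hmox1, Srxn1 or Gclm.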

How the results depend on the processing

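For old MICT over old control, 14 members were called. The count was 4 with quantile scaling, 3 with the deposited value table, and 0 in each of these: the compared groups alone, the additive model with slide, and without old MICT 1 and 2 (chosen after seeing the data) or old controls 1 and 2. It was 11 with normexp background correction, 17 with median scaling, and 13 to 14 with other filters, other probes, other variance models, array weights or flagged spots kept. It was 10 without old MICT 1 and old HIIT 1, also chosen after seeing the data. Leaving out each array in turn gave 8 (without old control 2) to 19 (without old control 3). Over all features the counts were 3701 to 8782, against 7164 with every array. For old over adult control, 4 members were called. The count was 12 with array weights, 0 with the compared groups alone, 0 in the additive model, 1 with the deposited table, and 0 without old controls 1 and 2. Leaving out each array gave 2 to 6, with 2 without each of old controls 1, 2 and 4 and adult controls 1, 3 and 4. Array weights called 1 member in adult HIIT over adult control, 4 in adult HIIT over adult MICT and 3 in the difference of MICT responses, where 0 were called otherwise and leaving out arrays gave 0 to 3, the highest without old control 3. No other comparison had a called member under any setting run. In old MICT over old control, without old MICT 1 and 2 Hmox1 turned to -0.05, Mt1 to -0.40 and Mt2 to -0.53. Gpx4 with age turned to 0.03 with the deposited table. The cause was not tested in any of these. The additive model's MICT term for Gclm was -0.03. It is the sum of -0.29 in adult HIIT over adult control and the reverse of -0.26 in old HIIT over old MICT. Old controls do not enter it, so the additive counts above do not re-test the old MICT or age differences themselves. Over all groups, same-numbered arrays of different groups deviated together with a median correlation of 0.04 (55 pairs, -0.44 to 0.40). For differently numbered arrays it was -0.03 (165 pairs, -0.60 to 0.58). A correlation over 0.1 was seen in 20 of the 55 pairs and 39 of the 165. Gclm, Nfe2l2 and the glucocorticoid-responsive score fell from array 1 to array 4 in both old MICT and old HIIT, while Nqo1 and Prdx3 did not. Whether replicate numbers mark a shared order of handling was not tested. The replicate block gave 13 and 3 calls in the old MICT and age comparisons. The number of arrays limits the precision of small differences.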

Other observations

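A pair of marker lists scored high in some arrays. The neutrophil and mast cell list scored 4.16 in old MICT 3, 5.60 in old HIIT 1 and 7.07 in old control 4, and between -0.36 and 0.27 in all adult arrays. Its mast cell genes Cpa3, Mcpt4 and Cma1 did not exceed the range of adult controls in old MICT 3, old HIIT 1 or old control 4. The keratinocyte list scored 0.96, 5.07, 6.54 and 7.65 in old HIIT 1 to 4, 0.23, 8.43, 4.51 and 1.62 in old controls 1 to 4, -0.13, -0.20, 7.15 and 3.29 in adult HIIT 1 to 4, and 0.80 at most in adult controls. In old HIIT over old MICT its 7 measured genes were all positive (median 5.03), with 6 at an unadjusted p under 0.05 and none called by limma (smallest adjusted p 0.210). Old MICT 1, which had the highest Hmox1 and Srxn1 of all 23 arrays, scored 0.18 and -0.54 on these lists. Old HIIT 1, the next highest in both genes, scored 5.60 and 0.96.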
